A study of Rattus norvegicus with 19 samples.

Results

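Transcripts of 8 neural cell adhesion molecules were followed in a sensory ganglion whose neurons extend collateral branches into neighbouring denervated skin: L1cam, Nrcam, Nfasc and Chl1 of the L1 family, Ncam1, and the contactins Cntn1, Cntn2 and Cntn4. Every probe set that the platform annotation assigns to 1 of these symbols alone was taken, whatever its values, which gave 16 of the 31042 probe sets tested and 8 of the 14217 genes named on the array. A probe set is a group of short probes read as 1 measurement of a transcript. Nfasc had 5 probe sets, Nrcam 3, Ncam1 3, and L1cam, Chl1, Cntn1, Cntn2 and Cntn4 had 1 each.

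The rats were adult female Sprague-Dawley animals of 260 to 310 g. In the operated groups the dorsal and lateral cutaneous nerves of segments T9, T10, T12 and T13 were cut on one side and T11 was spared, so that the T11 ganglion supplied the only intact skin field between denervated ones. The groups held 5 naive, unoperated rats, 7 operated rats killed on day 7 and 7 killed on day 14, each rat giving 1 T11 ganglion and 1 Affymetrix rat genome array. The submitters took day 7 to stand for the start of sprouting and day 14 for its maintenance, and they left 1 further naive array out after quality control. The naive rats had no sham surgery that the labels describe. In a difference from naive, sprouting, anaesthesia, the skin wound, loss of neighbouring nerves and any injury of T11 axons cannot be told apart.

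These proteins carry immunoglobulin and fibronectin domains outside the cell and bind each other, themselves and matrix or receptor partners. L1 family members span the membrane and anchor to ankyrin and spectrin, NCAM carries polysialic acid that loosens adhesion, and contactins are tied to the membrane by a lipid anchor and signal through partners beside them. In sensory ganglia they are known from axon outgrowth, axon bundling, the contact between axon and Schwann cell, and the assembly of the node of Ranvier.

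The arrays carried a sensory ganglion profile. Of the 16 sensory neuron markers 15 were measured, with an array mean of 11.86 to 11.98 in the naive group, 11.90 to 12.14 at day 7 and 11.78 to 12.04 at day 14 (log2 levels). Markers of spinal cord and central glia averaged 5.11 to 5.34 on every array, and the inhibitory neuron gene Gad1, the glycine transporter Slc6a5 and the oligodendrocyte genes Mog and Mobp lay between 4.61 and 4.92 in the group means, in a table that starts at 3.48. Of the same list, the glutamate transporter Slc17a7 read 8.17 to 8.19 and the astrocyte water channel Aqp4 5.38 to 5.93 in the group means. Skeletal muscle markers were high on 3 arrays, naive replicate 1 (9.86), day 7 replicate 7 (9.57) and day 14 replicate 2 (8.15), against 5.95 to 7.14 on the other arrays. The axotomized neuron list (Atf3, Npy, Gal and others) averaged 7.43 to 7.68 in the naive group, 7.68 to 9.65 at day 7 and 7.72 to 9.96 at day 14. Operated arrays were thus not alike in these genes, and some lay near the naive range. Atf3 had a group SD of 0.18 in the naive group, 1.40 at day 7 and 1.28 at day 14. Whether T11 axons were themselves injured in some rats was not tested. The ganglion was read whole, so fewer cells of a type and less RNA per cell cannot be told apart in any value that follows.

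None of the 16 probe sets passed an adjusted p of 0.05 in any comparison. The values are deposited log2 levels, where a difference of 1 is a fold of 2, and the test was limma with Benjamini-Hochberg adjustment over all 31042 probe sets. At day 7 against naive 0 of 16 passed, where 0% of all probe sets did. At day 14 against naive 0 of 16 passed beside 0.139% of all (43 probe sets, from 5 to 401 when 1 array was left out, without naive replicates 3 and 1, and 0 of 16 each time), and at day 14 against day 7 0 of 16 beside 0%. An F test over the 3 groups called 0.0258% of all probe sets (8) and none of these. At an unadjusted p under 0.05, 3 of 16 (18.8%) were met at day 7 against 8.7% of all, 2 of 16 (12.5%) at day 14 against 19.7%, and 3 of 16 (18.8%) between the days against 11.3%. These shares rest on 16 probe sets, of which 11 share a gene with another.

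Most differences were small. The median over the 16 was 0.04 at day 7, 0.05 at day 14 and 0.02 from day 7 to day 14, where the medians of all probe sets were 0.01, 0.02 and 0.01. At day 7 10 of 16 lay above naive, at day 14 12 of 16, and 11 of 16 lay higher at day 14 than at day 7, where 53%, 56.4% and 55% of all probe sets did. The day 7 and day 14 differences share the naive arrays. The probe sets that stood out from this were 2 of Nrcam, which lay in opposite directions at day 7, and those of Cntn1, Chl1 and 1 of Nfasc, which lay above naive without passing.

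**Figure D1:**
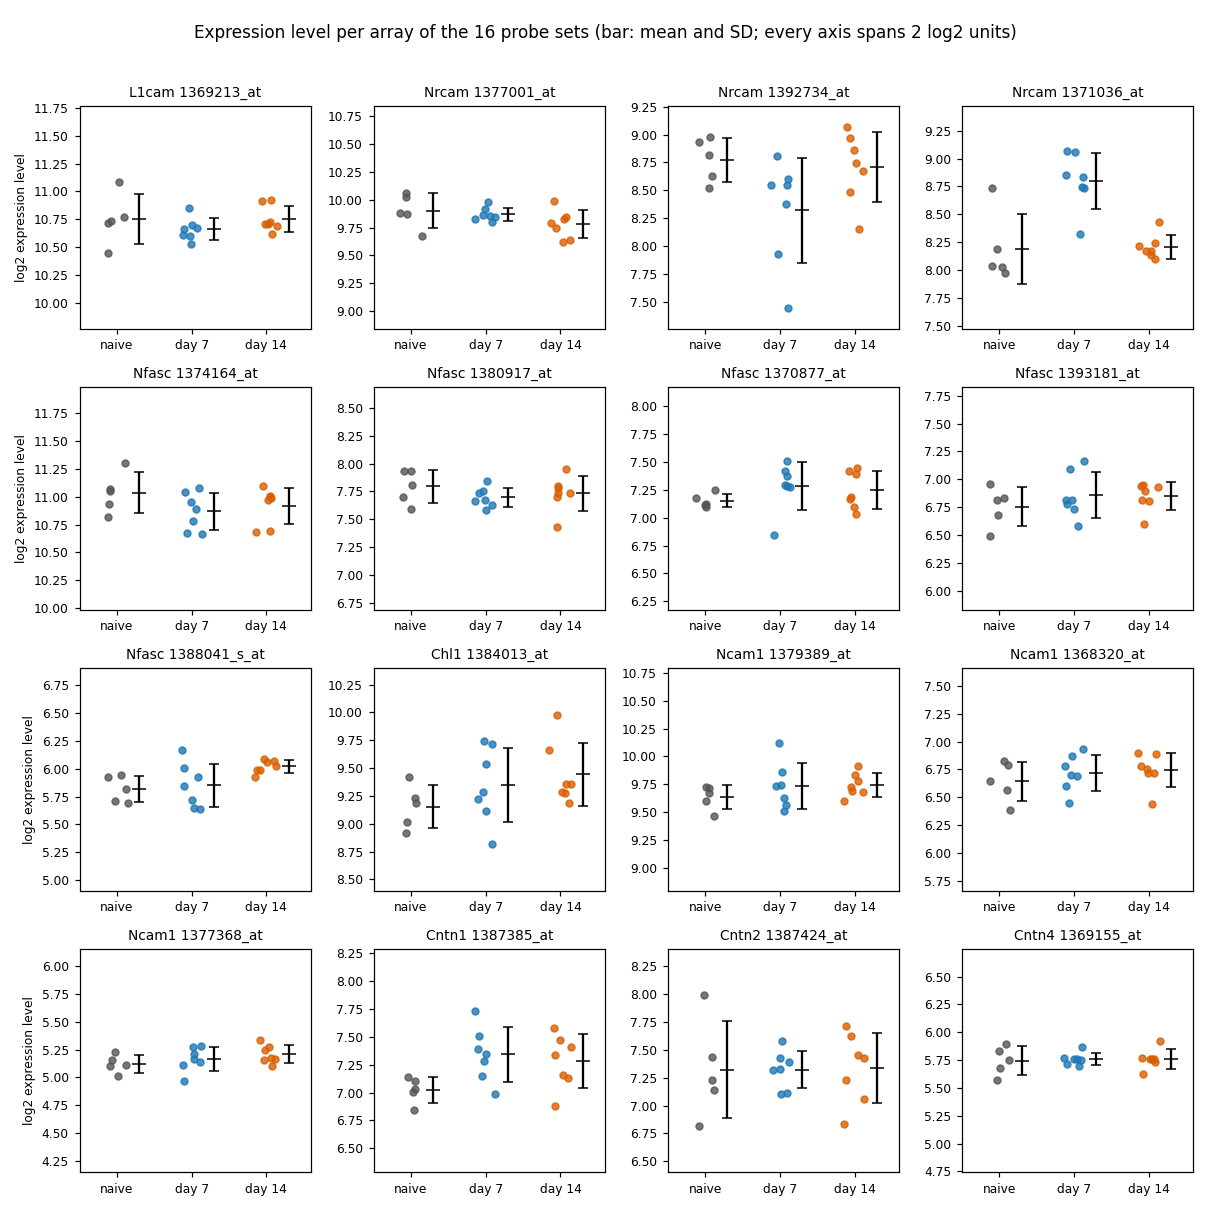
Log2 expression level (vertical axis) of each of the 16 probe sets on each of the 19 arrays, by group, with 1 point per rat and a bar for the group mean and SD; each panel spans 2 log2 units at its own height. The Nrcam probe set 1371036_at has 6 of 7 day 7 arrays above all naive arrays, while most other panels show groups that overlap.

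Nrcam, an L1 family member that helps gather sodium channels at the node, gave 3 readings that did not move together. Probe set 1371036_at read 8.18, 8.02, 8.03, 8.73 and 7.97 on the 5 naive arrays. At day 7 it read 8.32, 9.06, 8.83, 9.07, 8.75, 8.85 and 8.73, and at day 14 8.17, 8.13, 8.43, 8.24, 8.10, 8.21 and 8.17. The day 7 arrays were the high ones: 6 of 7 lay above every naive array, replicate 1 being the exception, and 6 of 7 day 14 arrays lay below every day 7 array. The day 7 difference from naive was 0.61 ± 0.12 (SE, limma adjusted p = 0.176, n = 7 and 5), a fold of 1.53 with an unadjusted 95% interval of 0.35 to 0.87 in log2. It had rank 14 by p among the 31042 probe sets. Day 14 differed from naive by 0.02 ± 0.12 (limma adjusted p = 0.949) and from day 7 by -0.59 ± 0.11 (limma adjusted p = 0.155, rank 7), the last value being known from an earlier analysis of these data. In the limma F test over the 3 groups this probe set had an adjusted p of 0.065.

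One naive array weighed on that result. Naive replicate 4 read 8.73 where the next naive array read 8.18, and it also had the largest excess of 3′ over 5′ signal in the control transcripts (GAPDH and beta-actin, 3.69 log2 units; 3.26 to 3.52 on the other naive arrays, 3.16 to 3.38 at day 7 and 3.18 to 3.36 at day 14). Leaving out 1 array at a time gave a day 7 adjusted p of 0.014 to 0.445, and 0.029 to 0.371 between the days. Without naive replicate 4 the day 7 difference was 0.75 with a limma adjusted p of 0.014, and that from day 7 to day 14 was again -0.59, with an adjusted p of 0.029. Without day 7 replicate 1 the difference between the days was -0.67 with a limma adjusted p of 0.039. With the 3′ minus 5′ signal as a covariate the day 7 difference was 0.79 with a limma adjusted p of 0.038, and that adjusted p was 0.424 with the 2 groups alone, 0.529 with the replicate block and 0.400 with the code prefix as a block. Between the days it was 0.403 without the 3 arrays high in muscle markers and 0.978 with the code prefix as a block. Whether signal quality had a part in the reported value was not tested further.

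The animal codes in the labels begin with AJ, AK or AI, and what these letters stand for is not given. The naive group holds 2 AJ and 3 AK rats, and day 7 holds 5 AJ and 2 AK rats. At day 14, 5 of the 7 rats have AI codes that no other group has, and 2 have AJ codes. A day 14 difference from naive among AJ rats therefore sets 2 rats against 2. For 1371036_at the day 7 difference was 0.63 among AJ rats, 0.71 among AK rats and 0.67 with the prefix as a block. The difference between day 14 and day 7 was -0.41 among AJ rats and -0.42 with the prefix as a block, smaller in size than the -0.59 over all rats. Without the 3 arrays high in muscle markers the 2 differences were 0.62 and -0.59.

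Probe set 1392734_at of the same gene read 8.98, 8.93, 8.63, 8.52 and 8.82 on the naive arrays. At day 7 it read 8.54, 7.93, 8.38, 7.44, 8.54, 8.60 and 8.80, and at day 14 8.86, 9.07, 8.15, 8.97, 8.67, 8.48 and 8.75. Here day 7 was the low group, with 3 of 7 arrays below every naive array, and the groups overlapped. The difference was -0.45 ± 0.19 at day 7 (limma adjusted p = 0.522), -0.07 ± 0.19 at day 14 and 0.39 ± 0.17 from day 7 to day 14 (limma adjusted p = 0.417). Day 7 replicate 4 held much of it: without that array the values were -0.31 and 0.24. Among AJ rats the day 7 difference was -0.46 and among AK rats -0.49.

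The third probe set, 1377001_at, read 9.67 to 10.06 in the naive group (median 9.88), 9.80 to 9.98 at day 7 (median 9.85) and 9.62 to 9.99 at day 14 (median 9.79). Its groups overlapped throughout. The differences were -0.03 ± 0.07 at day 7, -0.12 ± 0.07 at day 14 (limma adjusted p = 0.327) and -0.09 ± 0.06 between the days. Averaged over its 3 probe sets, Nrcam differed from naive by 0.04 ± 0.07 at day 7 and -0.06 ± 0.07 at day 14, a mean in which the opposed readings cancel.

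**Figure D2:**
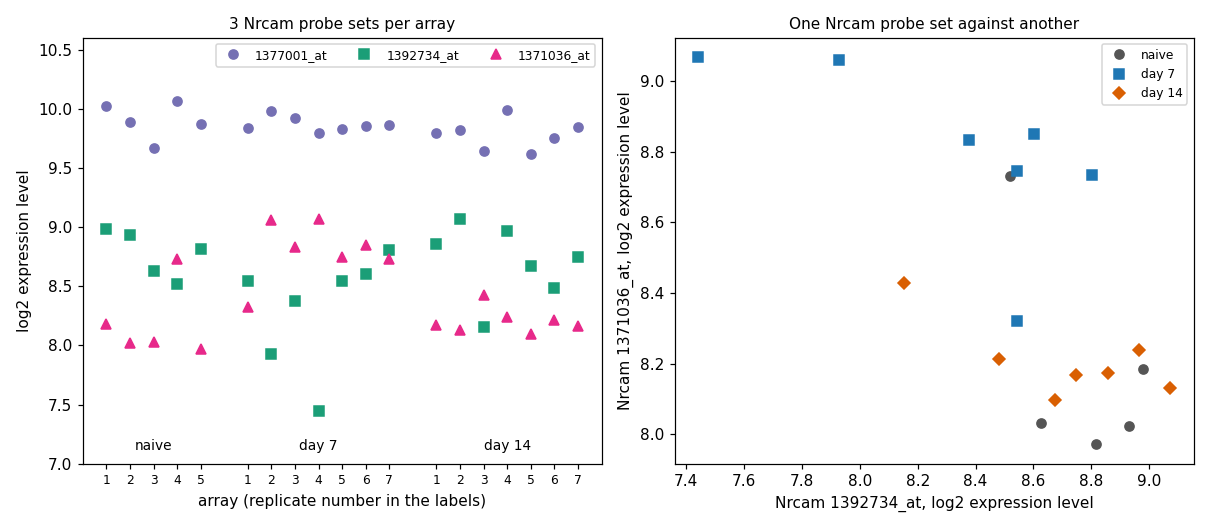
Left, log2 expression level (vertical axis) of the 3 Nrcam probe sets on each array, ordered by group and replicate number; heights of different probe sets are not comparable. Right, probe set 1371036_at (vertical) against 1392734_at (horizontal), both log2 levels, with 1 marker per rat; day 7 replicates 4 and 2 sit at the upper left, lowest on the horizontal axis (7.44 and 7.93) and highest on the vertical (9.07 and 9.06).

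Whether the Nrcam probe sets differed in their response was tested on the difference between probe sets within each array. For each gene with several probe sets, the one of highest mean level was set against each other one, which gave 6609 pairs in 4525 genes, and limma was run on these differences. At an adjusted p of 0.05 no Nrcam pair passed, beside 0.0151% of all pairs at day 7 (1 pair), 0.802% at day 14 and 0% between the days. The contrast of 1377001_at minus 1371036_at was -0.65 ± 0.12 at day 7 (limma adjusted p = 0.091), rank 2 of 6609 by p, and 0.51 ± 0.11 between the days (adjusted p = 0.163, rank 7). That of 1377001_at minus 1392734_at was 0.42 ± 0.18 at day 7 (limma adjusted p = 0.415) and -0.48 ± 0.17 between the days (adjusted p = 0.432). Both Nrcam pairs had an unadjusted p under 0.05 at day 7, as did 11% of all pairs, neither had at day 14, where 20.1% did, and both had between the days, where 9.11% did. The call on the first pair depends on the setting. Its limma day 7 adjusted p was 0.340 without naive replicate 2, 0.280 without naive replicate 5, 0.323 with the 2 groups alone, 0.225 with the replicate block and 0.172 with the code prefix as a block. It was 0.014 without naive replicate 4, 0.016 without day 7 replicate 1, 0.046 without day 14 replicate 3, 0.011 with array weights and 0.036 with the 3′ minus 5′ covariate. The direct contrast of 1392734_at minus 1371036_at, one of 9597 pairs when every pair of a gene was taken, a choice made after seeing the data, was -1.07 ± 0.27 at day 7 (limma adjusted p = 0.262) and 0.98 ± 0.25 between the days (adjusted p = 0.259).

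Across the 19 arrays 1392734_at and 1371036_at ran against each other. Pearson's r was -0.71 (permutation p = 0.00028, adjusted over 6 relations 0.00168) and Spearman's rho was -0.68 (permutation p = 0.00163). These values include the opposed differences between groups given above, so they are not separate from them. Without day 7 replicates 2 and 4, the 2 arrays farthest from the median of 1392734_at, r was -0.49 (permutation p = 0.045). After each group's mean was removed, r was -0.58 (permutation p = 0.010, adjusted 0.031) and rho -0.45 (permutation p = 0.058), and without those 2 arrays r was -0.41 (permutation p = 0.10), so the relation within groups rests in part on them. It was -0.66 within day 7, -0.72 within day 14 and, with group means removed, -0.62 among the 9 AJ rats. Single arrays can weigh on these values too. Day 14 replicate 3 had the lowest day 14 reading of 1392734_at (8.15) and the highest of 1371036_at (8.43). Naive replicate 4 likewise had the lowest naive reading of the first (8.52) and the highest of the second (8.73). Within day 7, replicates 2 and 4 were the lowest for 1392734_at (7.93 and 7.44) and the highest for 1371036_at (9.06 and 9.07). The AJ rats hold day 14 replicate 3 and day 7 replicate 4. The values within day 7, day 14 and AJ were not recomputed without such arrays. They therefore do not show that the relation holds among the other arrays. The relation of 1377001_at to the other two was weak, with residual r of 0.26 to 1392734_at (permutation p = 0.27) and 0.34 to 1371036_at (permutation p = 0.15). As a description, the 6609 pairs that set a gene's probe set of highest mean against another had a median residual r of 0.18. Of them 31.8% lay below 0. The median was 0.34 over the 2285 of these whose dimmer probe set lies above the median level, with 19.7% below 0. The pairs of 1377001_at are of this kind, and that of 1392734_at with 1371036_at is not. Which stretch of the Nrcam transcript each probe set reads was not analysed here.

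Marker lists of other cell types and states differed between the same groups. Of the 9 measured markers of myelinating Schwann cells 9 lay below naive at day 7 (median -0.33) and 9 above day 7 at day 14 (median 0.29), with 0 past the limma threshold in either comparison. Of 8 fibroblast and epineurium markers 6 lay below naive at day 7 (median -0.18) and 7 above day 7 at day 14 (median 0.22). Of 10 axotomized neuron genes 10 lay above naive at day 7 (median 0.82). In both lists 0 were past the threshold. For scale, with 1 probe set per gene, 6924 of all 14217 genes lay above and 7289 below naive at day 7. Between the days 7374 lay higher at day 14. The mean level of the myelinating Schwann cell markers ran from 10.50 to 10.88 on the naive arrays, 10.01 to 10.81 at day 7 and 10.40 to 10.98 at day 14. On day 7 replicates 2 and 4, where the 2 Nrcam probe sets lay farthest apart, it was 10.43 and 10.55, within the range of the other day 7 arrays, and the axotomized neuron mean was 9.65 and 7.72, the highest and close to the lowest of that group. Those 2 arrays had the highest macrophage means of day 7, 7.97 and 8.02 against 7.16 to 7.64, and the highest fibroblast means, 11.24 and 10.96 against 10.55 to 10.92. The part of these cells in the Nrcam values was not tested.

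L1cam, the founding member of its family and a receptor that promotes axon growth, lay close to naive at both times. It read 10.45 to 11.09 on the naive arrays (median 10.73), 10.53 to 10.85 at day 7 (median 10.67) and 10.62 to 10.92 at day 14 (median 10.70). The day 7 arrays all lay inside the naive range, as did the day 14 arrays. The differences were -0.09 ± 0.08 at day 7 (limma adjusted p = 0.808) and 0.00 ± 0.08 at day 14 (adjusted p = 0.994), with unadjusted 95% intervals of -0.27 to 0.09 and -0.17 to 0.18.

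Chl1, the close homologue of L1 that acts in axon guidance and is found on neurons and glia, lay above naive at both times without passing the test. It read 9.23, 9.42, 8.92, 9.19 and 9.02 on the naive arrays. At day 7 the readings were 9.29, 9.72, 9.54, 8.82, 9.12, 9.22 and 9.74, and at day 14 9.19, 9.28, 9.35, 9.67, 9.98, 9.35 and 9.28. The groups overlapped, with 3 of 7 day 7 arrays and 2 of 7 day 14 arrays above all naive ones. The differences were 0.19 ± 0.15 (limma adjusted p = 0.759) and 0.29 ± 0.15 (adjusted p = 0.297), the largest mean difference of the 16 at day 14. Among AJ rats, with 2 in either group, the day 14 difference was 0.43 ± 0.26.

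Nfasc, whose long form gathers sodium channels at the node and whose glial form seals the paranode, had 5 probe sets that did not share a direction. The one of highest mean, 1374164_at, read 10.81 to 11.30 on the naive arrays, 10.67 to 11.08 at day 7 and 10.68 to 11.09 at day 14, with differences of -0.17 ± 0.09 (limma adjusted p = 0.638) and -0.12 ± 0.09 (adjusted p = 0.493). Probe set 1380917_at also lay slightly below naive, by -0.10 at day 7 and -0.06 at day 14. The other 3 lay above naive at both times. These directions depend on the setting: with the 3′ minus 5′ covariate all 5 lay above naive at day 14, with 1374164_at at 0.05 and 1380917_at at 0.01, and at day 7 1374164_at was at -0.01.

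Of these, 1388041_s_at read 5.92, 5.71, 5.95, 5.82 and 5.69 on the naive arrays and 6.03, 6.06, 5.92, 5.99, 6.09, 6.07 and 5.99 at day 14. Of the day 14 arrays 6 of 7 lay above every naive array, while the day 7 arrays spread from 5.64 to 6.17 and overlapped both. The day 14 difference was 0.20 ± 0.08 (limma adjusted p = 0.181), a fold of 1.15, and that from day 7 was 0.17 ± 0.07 (adjusted p = 0.400). With the animal code prefix as a block the day 14 difference was 0.05, and among AJ rats it was 0.02. The suffix _s marks a probe set whose probes can match more than 1 transcript.

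The remaining Nfasc probe sets differed little. Probe set 1370877_at had 6 of 7 day 7 arrays above all naive arrays, at 7.27 to 7.51 against 7.10 to 7.25, and 1 array, replicate 7, below them at 6.84, so that the mean difference was 0.13 ± 0.10 (limma adjusted p = 0.721). That replicate was high in muscle markers, and the difference was 0.21 without it and 0.20 without the 3 arrays high in them. Probe set 1393181_at differed by 0.10 at day 7 and 0.09 at day 14, and by -0.02 and 0.01 without those 3 arrays. No Nfasc pair passed the within-gene test, where the largest contrasts were -0.32 ± 0.14 for 1374164_at minus 1388041_s_at at day 14 (limma adjusted p = 0.211) and -0.30 ± 0.13 for 1374164_at minus 1370877_at at day 7 (adjusted p = 0.414). The mean over the 5 probe sets differed by 0.00 ± 0.04 at day 7 and 0.04 ± 0.04 at day 14.

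Ncam1, the neural cell adhesion molecule and carrier of polysialic acid, lay slightly above naive in each of its 3 probe sets at both times. The one of highest mean, 1379389_at, read 9.60, 9.67, 9.47, 9.71 and 9.73 on the naive arrays. It read 9.75, 9.63, 9.73, 9.51, 9.86, 9.56 and 10.12 at day 7 and 9.60, 9.83, 9.68, 9.77, 9.92, 9.69 and 9.73 at day 14. The groups overlapped, and the highest reading, day 7 replicate 7 at 10.12, came from 1 of the 3 arrays high in muscle markers. Without those 3 arrays the day 7 difference was 0.03 and that at day 14 0.09. Over all arrays the differences were 0.10 ± 0.09 at day 7 (limma adjusted p = 0.785) and 0.11 ± 0.09 at day 14 (adjusted p = 0.489). The other two probe sets, 1368320_at and 1377368_at, differed by 0.08 and 0.04 at day 7 and by 0.10 and 0.08 at day 14, and the mean of the 3 by 0.07 ± 0.05 and 0.10 ± 0.05 (limma adjusted p = 0.696 and 0.302). With the animal code prefix as a block, the day 14 differences of those 2 were -0.08 and -0.05, so their direction depends on that choice. Probe set 1377368_at had a mean level of 5.17, in the low part of the table, where small differences are hard to read.

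Cntn1, the axonal contactin that pairs with Caspr at the paranode and also binds L1 family members and sodium channels, lay above naive at both times. It read 7.03, 7.14, 6.84, 7.00 and 7.11 on the naive arrays. At day 7 it read 7.34, 7.15, 7.28, 6.99, 7.51, 7.39 and 7.73, and at day 14 7.13, 7.41, 6.88, 7.34, 7.58, 7.16 and 7.48. All day 7 arrays but replicate 4 lay above every naive array, and 5 of 7 day 14 arrays did, with replicates 1 and 3 inside the naive range. The differences were 0.32 ± 0.12 at day 7 (limma adjusted p = 0.476) and 0.26 ± 0.12 at day 14 (adjusted p = 0.233), folds of 1.25 and 1.20, and -0.06 ± 0.11 between the days. At day 7 the value was 0.43 among AJ rats and 0.19 among AK rats. At day 14 it was 0.17 among AJ rats and 0.09 with the prefix as a block. Without the 3 arrays high in muscle markers the differences were 0.25 and 0.24.

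Cntn2, a contactin of juxtaparanodes and outgrowing axons, varied between rats more than between groups. Its level ran from 6.82 to 7.99 in the naive group (median 7.23), 7.11 to 7.58 at day 7 (median 7.33) and 6.84 to 7.72 at day 14 (median 7.43), with differences of 0.00 ± 0.16 and 0.01 ± 0.16. Cntn4, a contactin best known from wiring of the olfactory and visual systems, read 5.57 to 5.90 in the naive group, 5.70 to 5.87 at day 7 and 5.62 to 5.92 at day 14. It differed from naive by 0.02 ± 0.06 at both times. For either contactin the groups overlapped throughout.

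**Figure D3:**
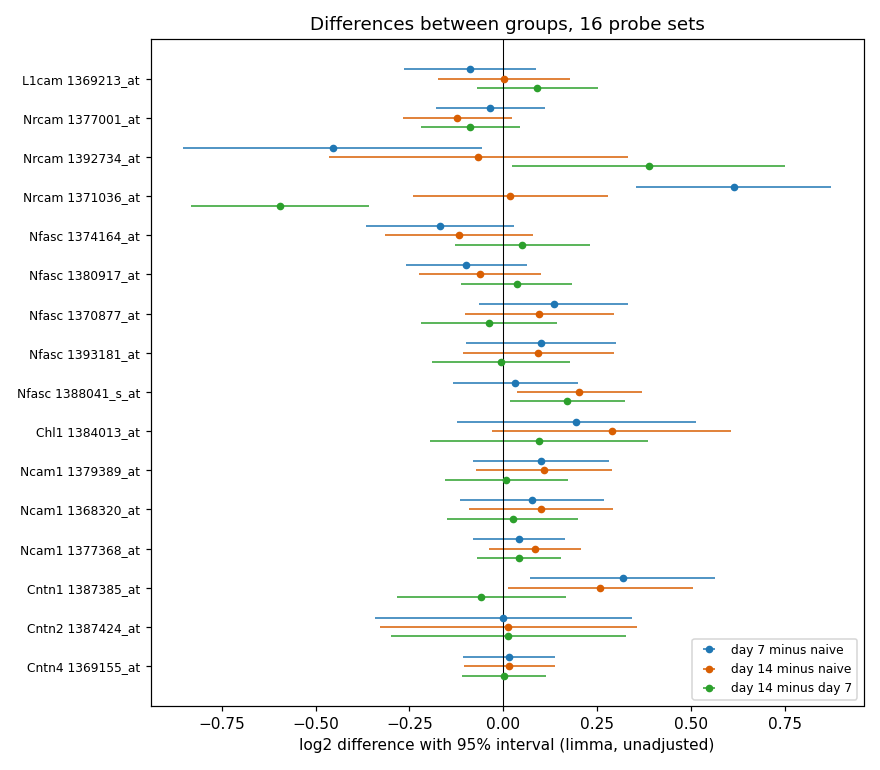
Log2 difference (horizontal axis) of each of the 16 probe sets in the 3 comparisons, with 95% intervals from limma that are not adjusted for the number of probe sets. Nrcam 1371036_at lies farthest from 0 in the comparisons that involve day 7 (0.61 and -0.59), and Nrcam 1392734_at lies on the other side (-0.45 and 0.39).

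One naive array was high for several members at once. Naive replicate 4 had the highest naive reading of L1cam (11.09), Nrcam 1377001_at (10.06), Nrcam 1371036_at (8.73), Nfasc 1374164_at (11.30), Nfasc 1370877_at (7.25) and Cntn2 (7.99). It shared the highest naive reading of Nfasc 1380917_at (7.94) with naive replicate 3. Its readings of Nrcam 1392734_at (8.52) and Cntn4 (5.57) were the lowest of the naive group. It is the array with the 3′ over 5′ signal of 3.69 given above.

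Few relations between members from rat to rat passed a test. With group means removed, and with 1 probe set per gene (that of highest mean) plus each of Nrcam, 42 relations between members were examined over 19 arrays, of which 30 had r above 0 and 12 below. Of the 42, 2 passed an adjusted p of 0.05. Ncam1 and Cntn1 had r = 0.80 (permutation p = 4e-05, adjusted 0.00084), rho = 0.79 (permutation p = 0.00015), r = 0.71 without naive replicate 3 and day 7 replicate 7, and r = 0.93 among the 9 AJ rats. Cntn1 and Nrcam 1392734_at had r = 0.78 (permutation p = 3e-05, adjusted 0.00084), rho = 0.65 (permutation p = 0.0033), r = 0.83 without day 7 replicate 7 and day 14 replicate 5, and r = 0.94 among AJ rats. For scale, 30 of the 12080 named probe sets above the median level (0.248%) were at least as close to Cntn1 as Ncam1 was. For Nrcam 1392734_at that count was 51 (0.422%). Each count includes the compared probe set itself. The same 19 arrays, amplifications and dissections lie behind both sides of each relation.

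**Figure D4:**
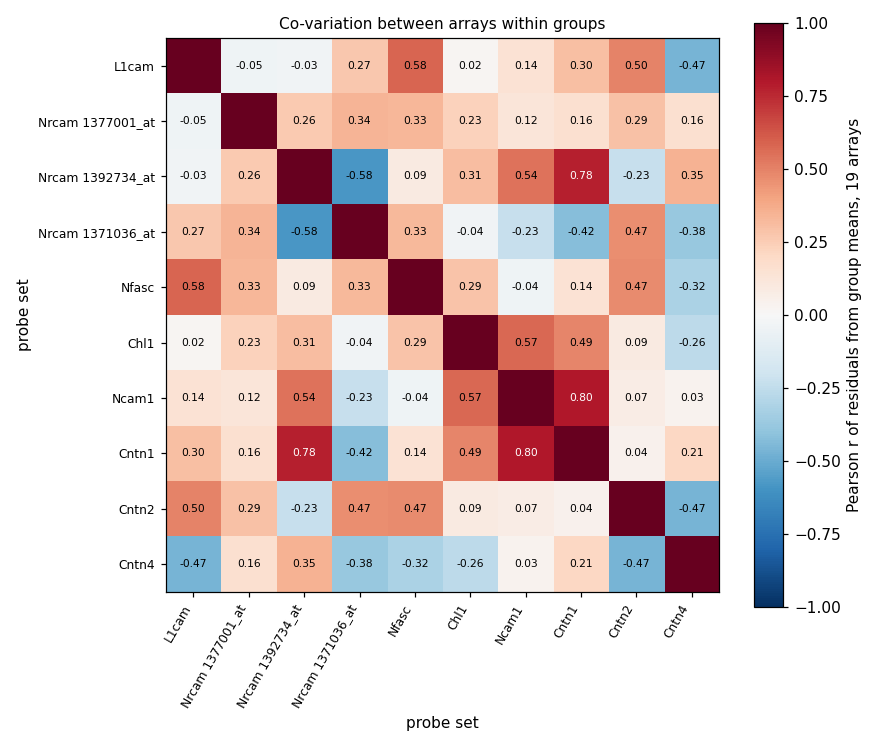
Pearson's r between members over 19 arrays after removal of group means, from -1 (blue) to 1 (red), with 1 probe set per gene and 3 for Nrcam. Cntn1 is closest to Ncam1 (0.80) and Nrcam 1392734_at (0.78), and the Nrcam probe sets 1392734_at and 1371036_at are opposed (-0.58).

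The genes whose pattern was most like each member's, by residual r over 19 arrays among about 12080 probe sets, were mostly not adhesion molecules. They were Ankrd53 (0.88) and Kat6b (0.88) for L1cam, Ube2o (0.92) and Rimbp2 (0.84) for Nfasc 1374164_at, Sorcs2 (0.82) and Anapc1 (0.77) for Chl1, and Rab36 (0.88) and Vgll4 (0.88) for Ncam1 1379389_at. Among the contactins they were Elovl6 (0.86) and Tmem248 (0.86) for Cntn1, Pcnx2 (0.87) and Chst5 (0.80) for Cntn2, and Slc3a1 (0.81) and Pafah1b1 (0.79) for Cntn4. Each Nrcam probe set had its own neighbours: Eea1 (0.84) and Map3k1 (0.80) for 1377001_at, Alg8 (0.89) and Rab9b (0.87) for 1392734_at, and Pnma8b (0.76) and Mdp1 (0.75) for 1371036_at. Being the highest of so many correlations, these values are a description.

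The genes that work with these molecules were read in 5 lists, with 1 probe set per gene, and 0 genes of any list passed the limma threshold in any comparison. Over all 14217 genes read in this way the medians were 0.00 in each comparison, and 20 genes were past the threshold at day 14. Of these 14217 genes, 6924 lay above naive at day 7, 7209 at day 14, and 7374 lay higher at day 14 than at day 7. Most day 14 rats have AI codes that no other group has. With the code prefix as a block, 0 of all probe sets passed at day 14 against naive. Single list genes were not examined in that way, so their day 14 differences are given without this check.

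In the list of polysialic acid synthesis and shedding all 15 genes were measured. It had 12 of 15 above naive at day 7 (median 0.07), 13 of 15 at day 14 (median 0.16) and 13 of 15 higher at day 14 than at day 7 (median 0.09). Plat, tissue plasminogen activator, a protease that sensory neurons release during outgrowth, read 8.27 to 8.93 in the naive group (median 8.54), 8.44 to 8.98 at day 7 (median 8.74) and 8.90 to 9.28 at day 14 (median 9.15). At day 14 6 of 7 arrays lay above every naive and every day 7 array. The difference from naive was 0.50 ± 0.11 (limma adjusted p = 0.067) and that from day 7 0.42 ± 0.10 (adjusted p = 0.262). St8sia4, a polysialyltransferase that builds the chain on NCAM, differed by 0.17 ± 0.06 at day 14 (limma adjusted p = 0.148) at a level of 5.06 to 5.40, and its second probe set by 0.19. Adam10, a sheddase of L1, differed by 0.23 ± 0.08 at day 14 (limma adjusted p = 0.156), and Adam17 by 0.20 ± 0.10 between the days (adjusted p = 0.439). In the opposite direction, the matrix protease Mmp9 differed by -0.63 ± 0.29 at day 7 (limma adjusted p = 0.554), with the naive arrays spread from 4.76 to 7.35, and a second probe set gave -0.17. The remaining genes of small p were St8sia3, a sialyltransferase (0.16 at day 7), St8sia4 at day 7 (0.09, and -0.07 in its second probe set) and Gpld1, a phospholipase that cuts lipid anchors (-0.16 between the days).

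Of the node and paranode partners 12 of 16 were measured. At day 7 5 lay above and 7 below naive (median -0.03), at day 14 7 and 5 (median 0.01), and 11 of 12 lay higher at day 14 than at day 7 (median 0.05). Mag, a myelin protein on the Schwann cell side of the axon contact, differed by -0.51 ± 0.15 at day 7 (limma adjusted p = 0.416) and -0.35 ± 0.15 at day 14 (adjusted p = 0.202), with 4 of 7 and 3 of 7 arrays below every naive one. Sptbn4, the spectrin of nodes and axon initial segments, differed by -0.38 ± 0.16 and -0.37 ± 0.16 (limma adjusted p = 0.527 and 0.208), and Ank2, ankyrin B, by -0.16 ± 0.10 at day 7, where its other two probe sets gave 0.14 and 0.06. The potassium channel Kcna1 of the juxtaparanode differed by 0.19 ± 0.09 at day 14 (limma adjusted p = 0.240). Between the days the smallest p belonged to Scn8a, the nodal sodium channel (0.10), Kcna1 (0.12) and Ank3, the ankyrin of nodes (0.17, and 0.05 and -0.03 in its other probe sets).

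Of 21 other immunoglobulin adhesion molecules 20 were measured, 10 above and 10 below naive at day 7 (median 0.00), 12 and 8 at day 14 (median 0.02), and 8 and 12 between the days (median -0.01). Nectin3 differed by 0.23 ± 0.10 at day 7 and 0.24 ± 0.10 at day 14 (limma adjusted p = 0.533 and 0.202), with 5 of 7 and 6 of 7 arrays above every naive one. Its other two probe sets gave 0.12 and 0.09 at day 7 and 0.10 and -0.02 at day 14. Opcml, a lipid-anchored member of the IgLON family, differed by 0.26 ± 0.12 at day 7 (limma adjusted p = 0.547) and 0.37 in its second probe set, and Cadm3, an axonal adhesion molecule that binds Schwann cell partners, by -0.25 ± 0.09 at day 14 (adjusted p = 0.150), where its second probe set gave 0.03. Sdk2 differed by 0.23 ± 0.06 between the days (limma adjusted p = 0.283) at a level of 5.39 to 5.93. Cntn3, a contactin outside the 8, differed by -0.16 ± 0.10 between the days, Negr1 by -0.25 ± 0.13, Mcam by -0.16 at day 7 and Thy1 by 0.13 at day 14. A second Mcam probe set went the other way, with 0.20 at day 7 and 0.36 at day 14 (limma adjusted p = 0.539 and 0.076). Its mean level was 5.245, against 10.28 for the first.

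Of 26 binding partners and co-receptors 25 were measured, with 9 above and 16 below naive at day 7 (median -0.03), 8 and 17 at day 14 (median -0.05), and 16 and 9 between the days (median 0.03). Gfra1, the GDNF co-receptor through which NCAM can also bind GDNF, read 10.72 to 10.88 in the naive group, 10.92 to 11.20 at day 7 and 10.85 to 11.35 at day 14. All 7 day 7 arrays lay above every naive array, and 5 of 7 did at day 14. Its differences were 0.20 ± 0.08 at day 7 (limma adjusted p = 0.487) and 0.23 ± 0.08 at day 14 (adjusted p = 0.135), and a second probe set gave 0.24 and 0.25. Plxna4, a semaphorin receptor, differed by 0.26 ± 0.08 at day 14 (limma adjusted p = 0.125) and its other probe set by 0.33. Egfr, with which L1 can signal, differed by -0.50 ± 0.19 at day 7 (limma adjusted p = 0.495), with 4 of 7 arrays below every naive one. Its other probe sets gave -0.18 and 0.06, at mean levels of 6.18 and 5.34 against 8.23 for the first. The proteoglycan Ncan, a ligand of L1 and NCAM, differed by 0.24 at day 14 and 0.22 between the days, at a mean level of 5.38. The integrin subunit Itga5 differed by 0.12 at day 7, and Aplp1 by -0.21 and the phosphatase Ptprz1 by 0.20 between the days. A second Ptprz1 probe set gave 0.02 between the days, at a mean level of 5.53 against 9.27 for the first.

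Of 18 intracellular partners 16 were measured, 8 above and 8 below naive at each time (medians -0.01 and 0.00), and 11 and 5 between the days (median 0.02). Ezr, ezrin, which links L1 to actin, had a median of 9.06 in the naive group (highest 9.22), 9.17 at day 7 (8.93 to 9.37) and 9.36 at day 14 (9.27 to 9.46). All 7 day 14 arrays lay above every naive one, and the difference was 0.27 ± 0.07 (limma adjusted p = 0.089). Shtn1, shootin, which couples L1 to actin flow in growth cones, differed by -0.26 ± 0.09 at day 7 and -0.27 ± 0.09 at day 14 (limma adjusted p = 0.455 and 0.147). The kinase Src, active downstream of L1 and NCAM, differed by -0.31 ± 0.12 at day 7 (limma adjusted p = 0.481). Its other probe sets gave -0.20, 0.01 and 0.03, at mean levels of 8.62, 5.11 and 4.98. Numb, an endocytic adaptor, differed by -0.14 ± 0.06 at day 7 and -0.16 ± 0.06 at day 14 (limma adjusted p = 0.533 and 0.171). A second Numb probe set gave 0.14 and 0.24 (limma adjusted p = 0.593 and 0.104), at a mean level of 5.01 against 10.52 for the first. Between the days the smallest p belonged to Ezr (0.19), Pak1 (0.07, and -0.01 in its second probe set) and Dlg1 (0.09).

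**Figure D5:**
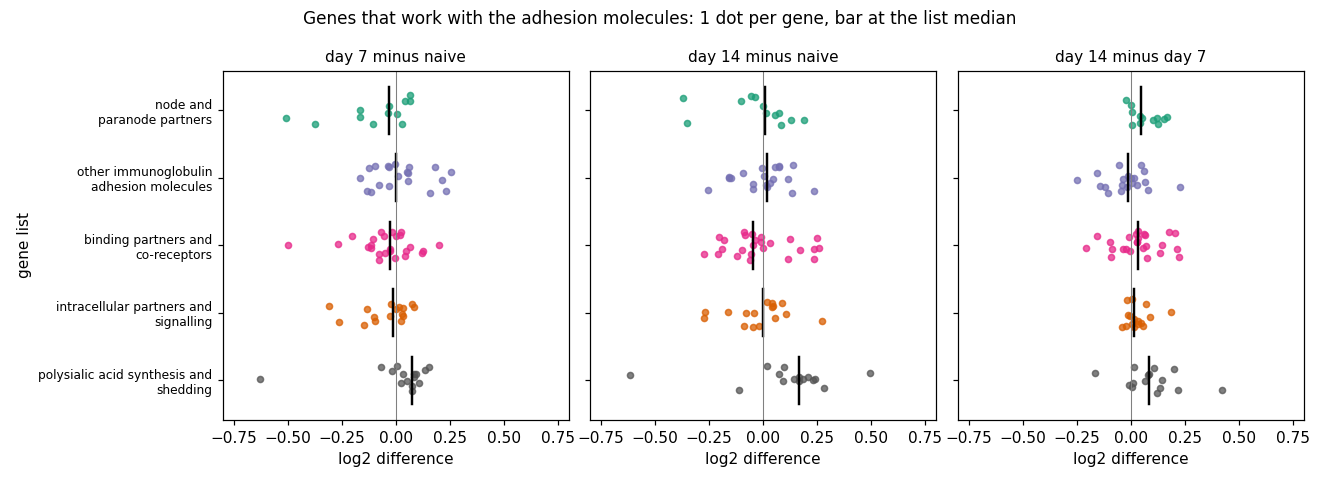
Log2 difference (horizontal axis) of each gene in 5 lists of genes that work with the adhesion molecules, for the 3 comparisons, with 1 dot per gene and a bar at the list median. The polysialic acid and shedding list has its median at 0.07, 0.16 and 0.09, and no dot in any panel passed the limma threshold.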

How the data were processed

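Whole T11 ganglia were read on 19 single-colour arrays, 1 per rat, after 2 rounds of oligo(dT)-primed amplification of 100 ng total RNA, which favours the 3′ end of transcripts. For each probe set the authors deposited a log2 level made with RMA, per the submitters' processing notes, which also name limma without versions. RMA's own background correction and normalization were kept, scanner files were not used here, and no detection calls come with the values. Of 31099 probe sets 57 controls were left out. Symbols came from the platform annotation, updated through RefSeq gene identifiers of GRCr8: 20826 probe sets have 1 symbol, 436 several and 9780 none.

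All 3 groups entered 1 fit (limma 3.58.1 in R 4.3.3, lmFit and eBayes, no covariates, Benjamini-Hochberg over all probe sets, threshold 0.05). Differences between probe sets of 1 gene were fitted in the same way. Permutation tests drew 100000 resamples, two-sided (numpy 2.4.6, with ranks from scipy 1.17.1). Residuals were shuffled over all arrays without regard to group, so their p may be slightly too small. Rules for named genes were every member probe set, the 3 list genes of smallest p per comparison (1 probe set per gene, that of highest mean), and the 2 genes most like each member. The members, lists and tests were chosen with earlier results of these data known. The scripts were tested on simulated data. The number of arrays limits the precision. Replicate numbers do not pair rats: over 17 pairs of same-numbered arrays the correlation of deviations ran from -0.26 to 0.33, with 3 above 0.1.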

Additional observations from a re-analysis of the deposited data

Results flagged for a closer look

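In 6 of 48 combinations of probe set and group, 1 array stood apart from the rest by Dixon's criterion, where chance gives about 1 in 20, or 2.4 of 48. Nrcam 1371036_at read 8.73 on naive replicate 4, with the next naive array at 8.18. The same probe set read 8.43 on day 14 replicate 3, with the next at 8.24. Day 14 replicate 3 was also the lowest of its group for Nfasc 1393181_at (6.60, next 6.81) and Ncam1 1368320_at (6.44, next 6.72), and it had the highest axotomized neuron mean of its group (9.96). Nfasc 1370877_at read 6.84 on day 7 replicate 7, next 7.27, an array high in muscle markers. Cntn4 read 5.87 on day 7 replicate 5, next 5.76.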

How the results depend on the processing

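Over 32 alternatives, 19 of them leaving out 1 array each, 1487 of 1501 values of single probe sets kept their side of the threshold and were not reversed. The sign differed in 111, and a change of sign was counted as reversed where the reported value was at least its SE. By animal code prefix, the day 14 differences of Ncam1 1368320_at and 1377368_at were -0.078 and -0.046 with the prefix as a block and -0.12 and -0.028 among AJ rats; at day 7 L1cam was 0.042 among AJ rats, and Ncam1 1379389_at and Nfasc 1393181_at were -0.11 and -0.066 among AK rats. With the 3′ minus 5′ covariate L1cam was 0.015 at day 7 and Nfasc 1374164_at 0.049 at day 14, and without the 3 arrays high in muscle markers Nfasc 1393181_at was -0.019 at day 7. The cause was not tested.

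The count of member probe sets past the threshold was 1 at day 7 with the 3′ minus 5′ covariate, and 0 to 1 at day 7 and between the days, 0 to 0 at day 14, with 1 array left out. The count of Nrcam pairs was 1 at day 7 at an adjusted p under 0.1, with array weights and with that covariate, 1 between the days with array weights, and 0 to 1, 0 to 0 and 0 to 1 with 1 array left out. The r between 1392734_at and 1371036_at ran from -0.76 to -0.64, that of 1377001_at with them from 0.05 to 0.29 and from 0.21 to 0.38. The replicate block gave 0 member probe sets past the threshold in each comparison, with Nrcam 1371036_at at 0.62 at day 7 and -0.59 between the days, and 9 of all probe sets at day 14 in place of 43. That count was 0 with the prefix as a block, among AJ rats or with the 3′ minus 5′ covariate, 134 with the muscle markers as covariate and 5 to 401 with 1 array left out, and that of all pairs at day 14 was 0 to 165 in place of 53, and 0 to 223 with 1 array left out. The array gives no depth. Cntn4, Ncam1 1377368_at, Nfasc 1388041_s_at and, by little, Ncam1 1368320_at have mean levels below the median of all probe sets.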
